A study of Mus musculus with 24 samples.

Results

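The genes described here encode ubiquitin ligases, the adaptors of ubiquitin ligases and deubiquitinases of 6 families, taken as the protein-coding genes of the GRCm38 annotation whose symbol starts with Usp, Fbxo, Fbxl, Klhl, Trim or Rnf and a digit. A gene was counted as a member if at least 1 of its exons carried an N6-methyladenosine (m6A) peak on its own strand in the kidney of any mouse. Of 299 annotated genes, 149 (49.8%) met this rule, against 7774 of 21951 protein-coding genes (35.4%). They comprised 33 Usp, 16 Fbxo, 8 Fbxl, 18 Klhl, 32 Trim and 42 Rnf genes, which held 1595 of the 91013 listed peaks. The symbol alone chose them. Usp6nl, which encodes a regulator of a small GTPase and not a protease, entered by its name and was kept.

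Ubiquitin is attached to proteins by a relay of activating (E1), conjugating (E2) and ligase (E3) enzymes, and the ligase or its adaptor picks the substrate. F-box proteins (Fbxo, and Fbxl with leucine-rich repeats) bring substrates to cullin-RING ligases built on CUL1, Klhl proteins do the same for CUL3, and Trim and Rnf proteins carry a RING domain of their own. Usp proteases remove ubiquitin again. In the kidney this system is known for setting the level of the kinases that control salt transport in the distal nephron, and for the handling of damaged proteins and DNA after toxic injury. m6A is a methyl mark on adenosines of mRNA that is read by proteins acting on splicing, decay and translation.

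MeRIP-seq, in which an antibody enriches methylated RNA fragments before sequencing, was performed on kidneys of male C57BL/6 mice aged 8 weeks, 4 mice per group. Control mice received daily saline for 14 days and then an intravenous injection of vehicle. Mice of the injury group (IG) received the same saline and then cisplatin at 20 mg/kg, and mice of the treatment group (TG) were given 20 mg/kg of berberine daily over the same 14 days before that dose of cisplatin. No group received berberine alone, and all kidneys were taken 72 h after the injection. The kidney is a mixture of cell types, so fewer cells of a type and less RNA per cell cannot be told apart, nor can the amount of an RNA and its methylation, since only lists of peaks were used. IG was compared with control (IvC) and TG with IG (TvI). Both comparisons use the same IG kidneys, so their values are given side by side.

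Each list gives the position, strand and score of every peak, where the score is 10 times the negative log10 of the caller's p. Control lists held 8531 to 9579 peaks, IG lists 6745 to 8357 and TG lists 5901 to 6753. Read counts were not part of them. Depth is therefore unknown, and an unlisted peak may only have missed the calling threshold. Peaks of all kidneys that overlapped were joined into 16801 loci, of which 275 lay on member genes. As a check of the labels, chosen after values were seen, the injury marker Havcr1 (KIM-1) had a peak in 0 control, 4 IG and 3 TG kidneys. Its highest score per kidney was 19.6 to 3144 in IG and 292 to 651 in those 3 TG kidneys, so it does not tell IG from TG. A score of 3100 was shared by 1086 peaks and only 79 scored higher, so values near it are at a ceiling.

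Sequences of the member loci listed in all 4 kidneys of a group and in 0 of the group compared with it are shown first. They are in GRCm38 and in the direction of the RNA, with capitals marking GGAC, the 4 bases of the m6A consensus searched here. The full consensus is RRACH, where R is A or G and H is A, C or U. Its forms without GGAC were not searched, so a stretch without GGAC can still hold the consensus. The Trim30d exon and the Usp28 stretch are whole loci, and the others are the bases around the GGAC nearest to the middle of a longer locus. The Trim30a exon stands beside its Trim30d copy because the exons are 85.3% identical. Whether reads of the pair can be separated was not tested.
Trim30d, chr7:104483332-104483562, minus strand, CDS: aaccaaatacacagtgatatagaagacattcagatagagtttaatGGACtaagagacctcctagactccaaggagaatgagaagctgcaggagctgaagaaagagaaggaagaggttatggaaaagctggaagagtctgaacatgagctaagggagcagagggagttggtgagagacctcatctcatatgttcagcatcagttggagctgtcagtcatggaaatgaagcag
Trim30a, chr7:104429121-104429351, minus strand, CDS: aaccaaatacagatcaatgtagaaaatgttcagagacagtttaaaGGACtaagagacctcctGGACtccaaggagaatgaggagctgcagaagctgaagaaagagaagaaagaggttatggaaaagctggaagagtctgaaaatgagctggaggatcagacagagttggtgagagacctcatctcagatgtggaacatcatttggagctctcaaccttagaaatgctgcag
Usp28, chr9:49030835-49030921, plus strand, CDS: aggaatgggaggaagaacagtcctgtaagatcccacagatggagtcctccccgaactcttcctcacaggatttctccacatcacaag
Usp4, chr9:108391929-108391958, plus strand, 3′ UTR: tcaaaccagatgaGGACattacctcctttt
Rnf150, chr8:83084343-83084372, plus strand, 3′ UTR: agaattccccaaaGGACaccatgacaaagt
Rnf185, chr11:3417003-3417032, minus strand, 3′ UTR: tgacataacacaaGGACctcagagatacag
Fbxo40, chr16:36969717-36969776, minus strand, CDS: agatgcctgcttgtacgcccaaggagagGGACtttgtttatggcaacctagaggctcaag
Klhl13, chrX:23235566-23235625, minus strand, CDS: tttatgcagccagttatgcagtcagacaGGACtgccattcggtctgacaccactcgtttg
The Fbxo40 locus held 13 GGAC in 1939 nt, the Rnf185 locus 9 in 2115 nt and the Usp28 stretch 0 in 87 nt.

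Over all member loci, GGAC stood in the 101 nt around the middle of 36.0% of 275 loci on the gene's strand and of 26.5% on the opposite strand. The shares were 34.9% and 25.9% over all 16553 loci with an assigned gene, so the members resembled the rest. GGACT, which contains GGAC, stood in 10.9% and 9.09% of member windows on the gene's strand and the opposite strand, and in 10.2% and 8.83% of all windows. By family the GGAC share on the gene's strand ran from 29.4% of Usp loci to 46.2% of Klhl, 50% of Fbxo and 60% of the 10 Fbxl loci.

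The families differed in how many of their genes carried a peak and in how many kidneys shared it. A peak was found on 33 of 56 Usp genes (58.9%), 18 of 36 Klhl genes (50%), 42 of 85 Rnf genes (49.4%), 32 of 68 Trim genes (47.1%), 16 of 36 Fbxo genes (44.4%) and 8 of 18 Fbxl genes (44.4%). Among the 149 members, 37 (24.8%) had a peak in all 12 kidneys, compared with 24.3% of all protein-coding genes with a peak. Usp supplied 13 of these genes, Rnf 15, Fbxo and Trim 4 each, Fbxl 1 and Klhl 0. At the edge of the rule stood 14 genes with a peak in 1 kidney only, whose scores ran from 14.9 to 3100 with a median of 20.9, and 150 annotated genes without a peak on their strand, 1 of which had a peak on the opposite strand. The score of 3100 belonged to a 3′ UTR locus of Trim6 in kidney IG 4 that was listed in none of the other 11 kidneys. It was singled out after its value was seen. Of 3878 loci listed in 1 kidney, 9 scored at least 1000.

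From the 49 family genes chosen as known regulators, 33 had a peak. The 16 without one were Klhl9, Klhl12, Usp14, Usp22, Usp30, Fbxo2, Fbxo7, Fbxl2, Fbxl5, Trim27, Trim28, Rnf4, Rnf5, Rnf7, Rnf31 and Rnf40. Rnf40 works with Rnf20 on the same histone, and only Rnf20 of the pair was listed. Usp14 acts on the proteasome, Usp30 on mitochondria and Rnf7 in cullin-RING ligases.

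Control kidneys had a peak on 94, 98, 102 and 103 member genes, IG kidneys on 100, 93, 99 and 86, and TG kidneys on 79, 70, 77 and 81. The means were 99.25 ± 4.11 (SD, n = 4), 94.5 ± 6.45 and 76.75 ± 4.79. Control and IG overlapped, while every TG kidney lay below every IG and every control kidney. In IvC the mean of the members changed by -4.79% and that of all genes by -11.8%, and in TvI the changes were -18.8% and -12.4%. When every list was shortened to its 5901 highest-scoring peaks, the counts were 72 to 76 in control, 75 to 81 in IG and 68 to 77 in TG. The mean difference in IvC then turned from -4.75 to 3.75 genes, and that in TvI shrank from -17.75 to -5.25, so these counts moved with the length of the lists.

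Usp and Rnf genes, the deubiquitinases and RING ligases, had overlapping numbers in control and IG. Usp genes numbered 22, 24, 25 and 26 in control, 25, 24, 29 and 23 in IG, and 23, 19, 21 and 21 in TG. All groups overlapped. With equal lists Usp genes numbered 17 to 20 in control, 20 to 23 in IG and 18 to 23 in TG. Control and IG then met only at 20. Rnf genes numbered 30, 26, 26 and 30 in control, 31, 28, 28 and 28 in IG, and 25, 21, 25 and 22 in TG, and the TG kidneys lay below the other groups. With equal lists they no longer did, at 21 to 24 in control, 22 to 27 in IG and 20 to 25 in TG.

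Among the substrate adaptors of cullin-RING ligases, Klhl and Fbxo peaks were listed on fewer genes in IG than in control on average, while Fbxl genes were too few to show a direction. Klhl genes numbered 12, 11, 15 and 15 in control, 11, 9, 9 and 7 in IG, and 7, 6, 6 and 8 in TG, a mean change of -32.1% in IvC in which 1 IG kidney tied with the lowest control. Fbxo genes numbered 13, 14, 13 and 11 in control, 10, 10, 11 and 6 in IG, and 9, 7, 8 and 9 in TG, a mean change of -27.5% in IvC with the same tie. TG kidneys lay below every control kidney for both, as they did for all genes with a peak (3607 to 4111 in TG and 4775 to 5138 in control). Of 18 Klhl genes, 11 were listed in fewer IG than control kidneys and 4 in more, and of 16 Fbxo genes 9 and 1. Among all 149 members the split was 52 and 43, and among all 7774 genes with a peak it was 2926 (37.6%) and 1753 (22.5%). With lists of equal length, Klhl genes numbered 7 to 11 in control, 5 to 8 in IG and 6 to 7 in TG, and Fbxo genes 9 to 11, 6 to 9 and 7 to 9. The mean difference of Fbxo in TvI turned from -1 to 1.

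Trim genes numbered 15, 20, 17 and 17 in control, 19, 18, 19 and 19 in IG, and 13, 16, 16 and 18 in TG. Those groups overlapped. With equal lists control kidneys held 9 to 12 Trim genes and IG kidneys 15 to 18, so these 2 groups no longer overlapped. TG kidneys held 12 to 16. All members numbered 72 to 76 in control and 75 to 81 in IG at that length, with overlap. The count over all genes was not made at equal length, so no background stands beside the Trim values. Fbxl genes were few, at 2 to 6 per control kidney, 3 to 4 per IG kidney and 1 to 3 per TG kidney.

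**Figure D1:**
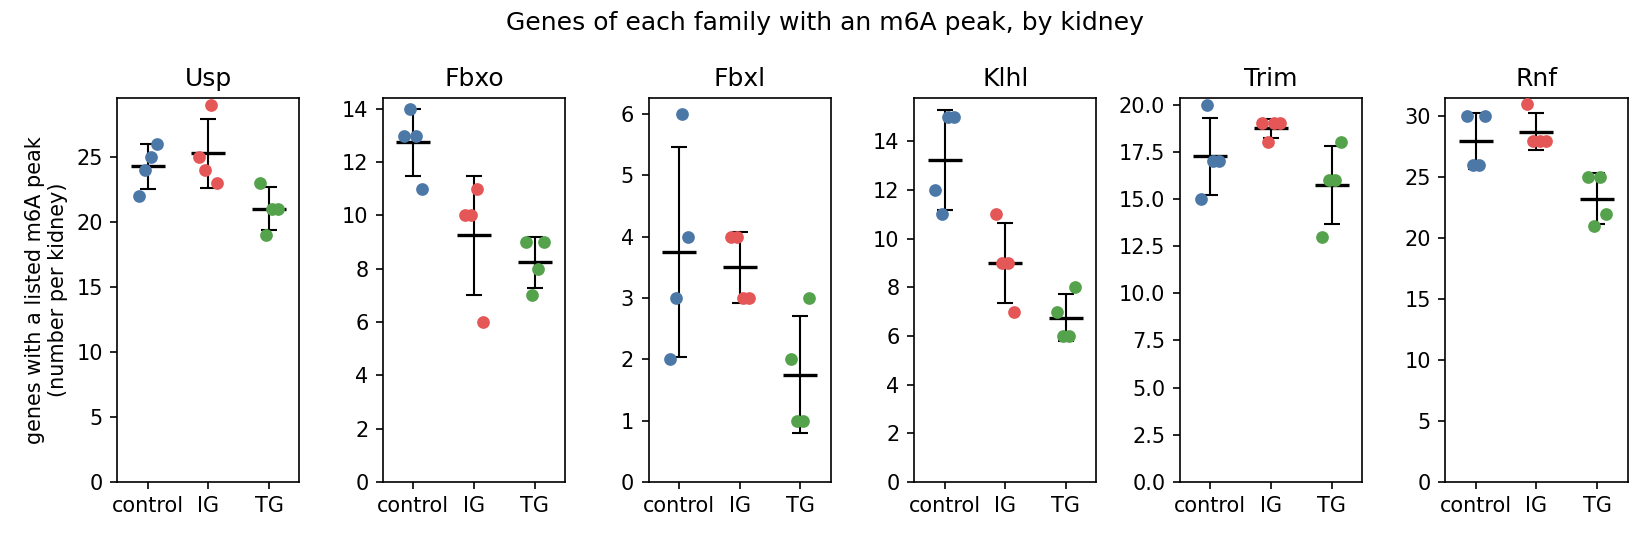
Number of genes with a listed m6A peak in each of 12 kidneys (points), by family and group, with the mean (bar) and SD (whiskers, n = 4). Klhl peaks lay on 11 to 15 genes in control kidneys, 7 to 11 in IG kidneys and 6 to 8 in TG kidneys, while Usp and Trim counts overlapped between all groups.

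The positions of member peaks were set beside those of other genes. Averaged over 12 kidneys, 65.0% of member peaks lay in the CDS (range 61.0 to 69.7%) and 62.5% of the peaks of other genes, which overlapped. Segments around a codon reached 200 nt to each side. The start codon segment held 7.31% of member peaks (6.09 to 8.92%) and 11.99% of the others (10.98 to 13.1%). The 3′ UTR held 17.0% (12.7 to 21.3%) against 11.3% (10.1 to 12.7%), where the lowest kidney of the members lay just above the highest of the others. The stop codon segment held 10.3% (7.69 to 12.1%) against 13.1% (12.04 to 13.8%), with overlap. Member peaks were also longer, with a median of 613 nt averaged over kidneys (425 to 722 nt) against 349 nt (313 to 410 nt). By group, the CDS share of member peaks was 65.9 to 69.7% in control, 60.99 to 64.6% in IG and 61.5 to 69.2% in TG, and the 3′ UTR share 12.7 to 16.7%, 16.9 to 21.3% and 15.4 to 19.2%, so that control and IG did not overlap in either. For other genes control and IG overlapped in both shares. Their CDS share was 60.5 to 63.3% in control and 61.2 to 62.6% in IG. Their 3′ UTR share was 10.9 to 11.6% and 11.1 to 12.7%. The peaks of 1 kidney share a library, so the 12 values describe the libraries, and no test was made.

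Within the set, Usp peaks lay in the CDS at 79.2% and matched a whole annotated exon in 71.7% of cases, with a median length of 348 nt. Klhl peaks lay in the CDS at 35.6%, in the stop codon segment at 21.3% and in the 3′ UTR at 33.6%, matched a whole exon in 13.7% and had a median length of 1032 nt. These Klhl means pool groups that differed: the CDS share was 58.3, 53.8, 56.3 and 52.9% in control, 46.2, 36.4, 18.2 and 14.3% in IG, and 28.6, 14.3, 14.3 and 33.3% in TG, over 12 to 17 assigned peaks per control kidney, 7 to 13 per IG kidney and 7 to 9 per TG kidney. Control did not overlap with either cisplatin group, whereas the Usp share was 76.8 to 83.3%, 76.0 to 78.05% and 77.8 to 82.1%. Fbxo peaks had a median length of 1153 nt and Fbxl peaks 1137 nt. Gene structure differed in the same direction: Usp members had a median of 18 exons and a longest exon of 1749 nt, and Klhl members 7 exons and 2305 nt, compared with 9 exons and 1702 nt over all genes with a peak. The part of gene structure in these lengths was not tested. In the rank of their scores within a list, where 50 is the middle, Usp peaks had a median percentile of 59.3 (47.2 to 65.2 over kidneys), Rnf 53.3 (42.2 to 66.1), Fbxo 53.1 (17.95 to 80.7), Trim 36.4 (24.4 to 48.9), Fbxl 36.02 (2.92 to 60.8) and Klhl 35.001 (12.5 to 55.8). The ranges of neighbouring families overlapped, so their order is not resolved.

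**Figure D2:**
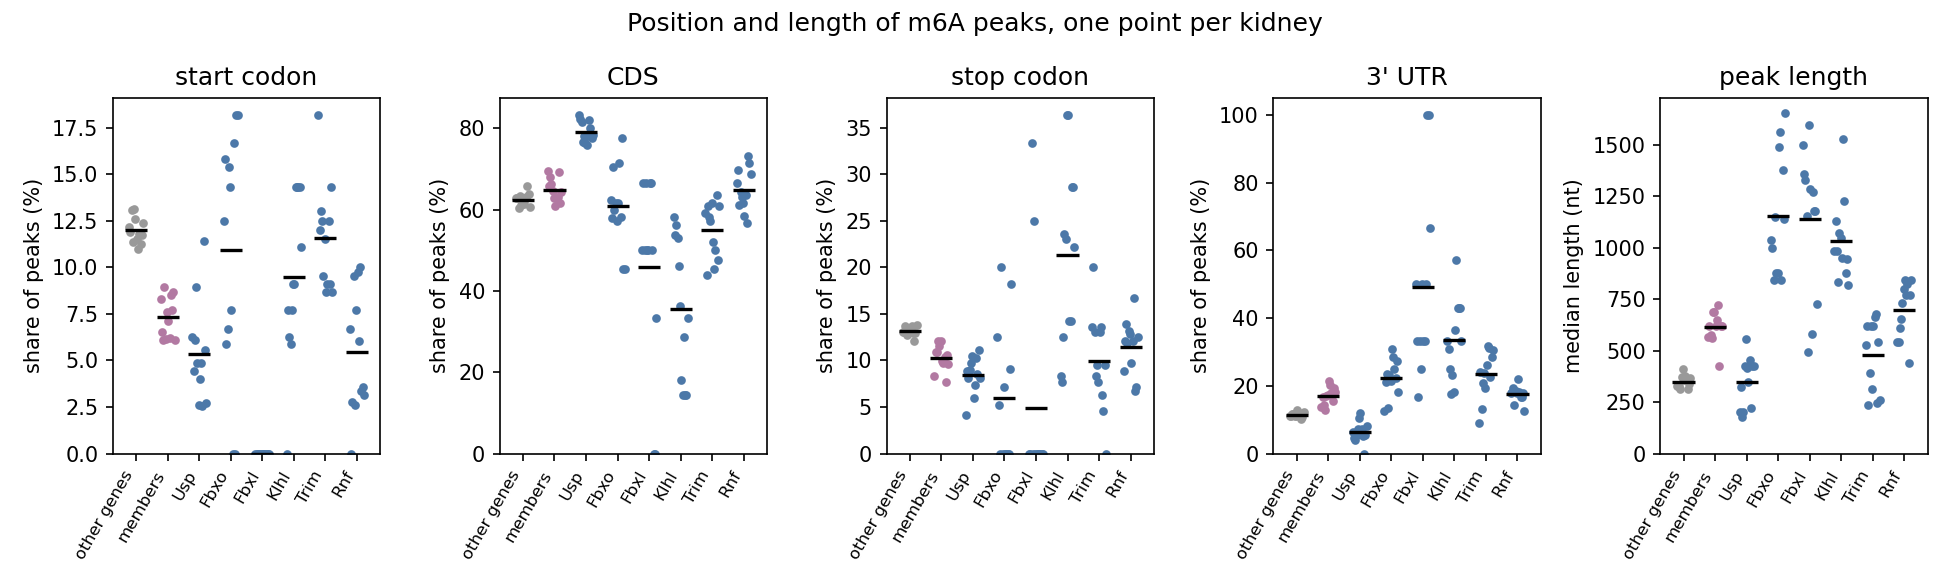
Share of peaks in 4 transcript segments and median peak length (nt) for other genes, all members and each family, with 1 point per kidney (12 kidneys) and the mean as a bar. Usp peaks lay mostly in the CDS (mean 79.2%), and Fbxo, Fbxl and Klhl peaks were the longest (means 1153, 1137 and 1032 nt).

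Each locus was then tested for the presence of a peak by a two-sided Fisher's exact test, in which 4 of 4 kidneys against 0 of 4 gives p = 0.0286 and nothing else is below 0.05. No locus passed after Benjamini-Hochberg adjustment: the lowest adjusted p was 0.701 over 16061 loci in IvC and 1 over 13357 loci in TvI, with 655 and 90 loci below 0.05 before adjustment. In IvC, 4 of 268 member loci (1.49%) were gained in IG against 1.35% of all loci, and 2 (0.746%) were lost against 2.73%. In TvI, 0 of 221 member loci were gained in TG against 0.225% of all loci, and 2 (0.905%) were lost against 0.449%. With a difference of at least 3 of 4 kidneys, 9 member loci (3.36%) were gained and 17 (6.34%) lost in IvC against 3.82% and 8.95% of all loci. In TvI, 2 (0.905%) were gained and 10 (4.52%) lost against 1.28% and 3.21%. These shares were near or below those of all loci, apart from losses in TvI, which rest on 2 and 10 loci.

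The deubiquitinases supplied 2 of the 4 loci gained in IvC. Usp28, which protects nuclear proteins from degradation and takes part in the DNA damage response, had a peak in exon 17 of 24 with scores of 20.2, 30.6, 63.0 and 74.7 in IG and none in the 4 control and 4 TG kidneys. It was the single member locus that met the 4 of 4 against 0 of 4 rule in both comparisons. With lists of equal length, or with a reciprocal overlap of 50%, it was left in 3 IG kidneys and met the rule in neither. The peaks covered parts of the 87 nt printed above. Usp4, a close relative of Usp15, had a peak in its 3′ UTR (chr9:108391679-108392529) with scores of 60.2, 47.8, 46.4 and 44.0 in IG, none in control, and 20.1 and 37.5 in TG 1 and TG 3.

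Among the RING ligases, Rnf150 had a peak in its 3′ UTR (chr8:83083436-83084723) in all IG kidneys, with scores of 25.99, 14.1, 54.1 and 38.4, and in TG 3 with 78.8, but in no control kidney. With lists of equal length it was left in 3 IG kidneys. Rnf185, a ligase of the endoplasmic reticulum that marks misfolded proteins, had a 3′ UTR peak (chr11:3415973-3418087) with scores of 129, 162, 125 and 184 in control and 19.1, 57.6, 71.0 and 104 in IG, and no TG kidney listed it. Its control and IG scores did not overlap, and it was the other locus lost in TvI. With lists of equal length it was left in 3 IG kidneys and no longer met the rule.

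The 2 losses of IvC fell on cullin adaptors. Fbxo40, an F-box protein known from muscle, had a peak over its CDS exon (chr16:36968827-36970765) with scores of 50.9, 59.3, 149 and 183 in control. Klhl13, a CUL3 adaptor that acts in mitosis, had a peak over exon 5 of 7 (chrX:23235226-23236021) with scores of 30.5, 81.8, 50.6 and 35.8 in control. Neither was listed in any of the 8 cisplatin-treated kidneys, IG or TG. With equal list lengths Klhl13 was left in 2 control kidneys.

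Trim30d, an interferon-inducible Trim gene, had a peak over its 231-nt exon 4 with scores of 41.1, 124, 66.3 and 47.7 in IG and 84.0, 136 and 170 in TG 2, TG 3 and TG 4, and none in control. The same exon of Trim30a is 85.3% identical and was listed in all 12 kidneys, and that of Trim30c is 87.9% identical and was not listed, so reads of these copies may be split and the value of a single copy is uncertain. The Trim30a exon scored 39.8 to 142 in control, 21.6 to 68.2 in IG and 116 to 286 in TG, and the TG and IG kidneys did not overlap. In Trim12c, whose exon is 70.1% identical, a peak was listed in 4 control, 4 IG and 3 TG kidneys.

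Other loci of the same gene cluster on chromosome 7 were examined after their values had been seen. Trim5, related to a factor that restricts retroviruses, had a 3′ UTR peak in 1 control kidney with a score of 13.7, in 4 IG kidneys with 40.0 to 178 and in 4 TG kidneys with 20.3 to 91.8. Trim34b scored 14.9, 19.2 and 25.1 around its start codon in 3 control kidneys, 85.0 to 145 in IG and 23.9 to 124 in TG. Trim12c scored 37.0 and 34.4 in its 3′ UTR in 2 control kidneys, 58.5 to 286 in IG and 27.6 to 47.5 in 3 TG kidneys. Loci whose control and IG scores overlapped stood in the same cluster. Trim34a had scores around its start codon of 47.4 to 154 in 4 control kidneys, 26.2 to 47.7 in 3 IG kidneys and 18.4 to 92.5 in 3 TG kidneys. The Trim30a exon above and the 231-nt exon of Trim12c, at 34.3 to 51.4 in control and 21.3 to 77.9 in IG, were among them too.

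**Figure D3:**
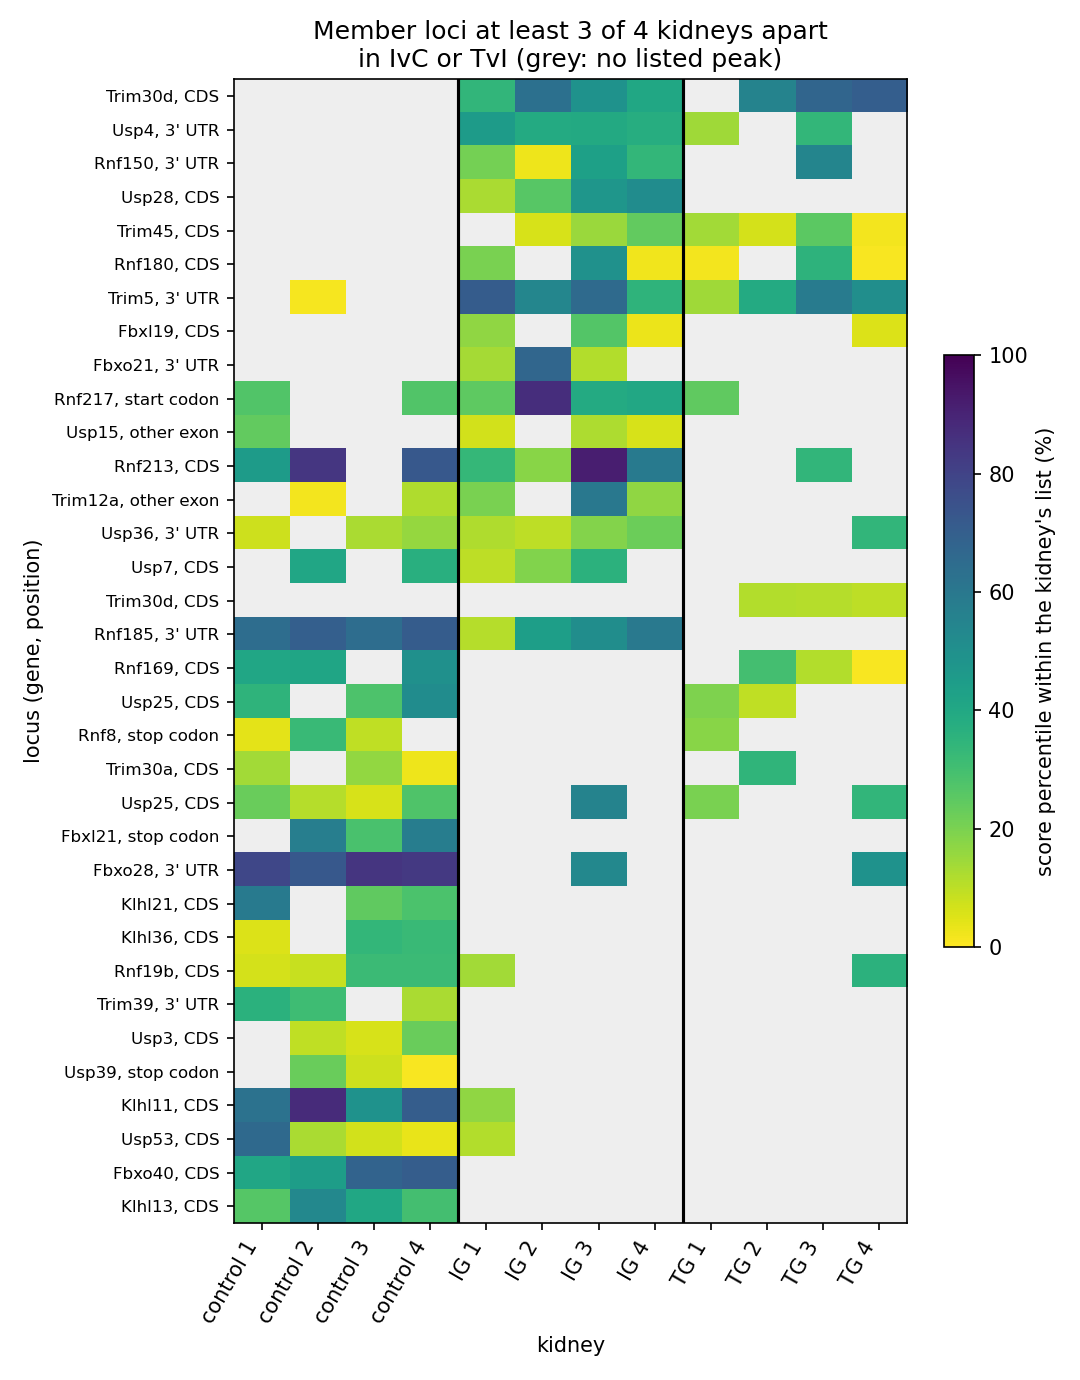
Score percentile in each of 12 kidneys for the 34 member loci, on 32 genes, that were at least 3 of 4 kidneys apart in IvC or TvI, with grey where no peak was listed. Loci run from those listed in more IG than control kidneys to those listed in fewer, and the lowest 17 rows were listed in 3 or 4 control kidneys and in 0 or 1 IG kidney.

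Among these 17 loci stood 4 Klhl genes: Klhl13 (4 control and 0 IG kidneys), Klhl11 (4 and 1), Klhl21 (3 and 0) and Klhl36 (3 and 0), none of which was listed in TG. Thus 4 of 26 Klhl loci (15.4%) were lost by at least 3 kidneys in IvC and 0 gained, beside the 8.95% and 3.82% of all loci. Klhl11 had the highest scores of the 4, at 119, 462, 68.8 and 181 in control and 22.7 in IG 1. Klhl21, like Klhl13, acts in mitosis.

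Fbxo28 had a 3′ UTR peak with scores of 255, 182, 358 and 380 in control, 77.98 in IG 3 and 72.3 in TG 4, and none in the other 6 kidneys. Its mean control score was the highest among the 17 loci lost by at least 3 kidneys in IvC. Fbxl21, a receptor for cryptochromes of the circadian clock, was listed in 3 control kidneys (33.0 to 102) and in none with cisplatin.

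Among ligases of the response to DNA breaks, Rnf8 was listed in 3 control, 0 IG and 1 TG kidneys, with scores of 14.8 to 38.8. Its locus also overlaps Gm28043. Rnf169 was listed in all 12 kidneys through its 3 loci, and its exon 2 was listed in 3 control, 0 IG and 3 TG kidneys, with scores of 51.0 to 76.1 in control and 13.4 to 33.5 in TG. Rnf168, which acts after Rnf8, was listed in all 12 kidneys and is described next.

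A peak present in all kidneys can still rank differently, which the presence test does not see. At 46 member loci listed in all 12 kidneys, the percentiles of the 4 IG and 4 control kidneys did not overlap at 5 loci upwards (10.9%) and 5 downwards (10.9%), against 9.75% and 15.9% of 2420 loci in all. In TvI, 3 (6.52%) were higher and 1 (2.17%) lower, against 2.77% and 4.34%. Groups that do not overlap give p = 0.0286 in a two-sided exact permutation test of 4 against 4 kidneys, the smallest it allows, and the lowest adjusted p was 0.112 in IvC and 0.402 in TvI, so 0 of the 620 and 172 loci below 0.05 passed adjustment. This comparison was added after the data had been seen.

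Rnf168, which ubiquitinates a histone at DNA breaks, scored 158, 276, 158 and 224 at exon 3 in control, 630, 856, 733 and 523 in IG, and 960, 975, 924 and 908 in TG. The 3 groups did not overlap, and TG was the highest. At exon 2 it scored 42.2 to 77.3 in control, 133 to 307 in IG and 163 to 332 in TG, with control below both. Its 3′ UTR locus went the other way in the number of kidneys, with 4 control, 3 IG and 1 TG. A further locus (chr16:32289119-32289240) was listed in 4 control, 2 IG and 4 TG kidneys. Exon 3, which held no GGAC in its 180 nt, reads as follows.
Rnf168, chr16:32285370-32285549, plus strand, CDS: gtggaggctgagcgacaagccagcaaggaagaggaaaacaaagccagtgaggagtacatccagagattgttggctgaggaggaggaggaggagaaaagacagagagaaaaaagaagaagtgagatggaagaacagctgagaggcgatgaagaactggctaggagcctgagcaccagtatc

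Rnf20, the ligase that monoubiquitinates a core histone in transcribed genes, scored 825, 807, 812 and 1284 at exon 13 of 20 in control, 3230, 2384, 2287 and 2482 in IG, and 2003, 2244, 2374 and 2184 in TG. Trim44 scored 186, 454, 344 and 380 at exon 1 in control, 2282, 3100, 2256 and 885 in IG, and 1509, 1765, 1334 and 1043 in TG. In both, every cisplatin-treated kidney lay above every control kidney, and IG and TG overlapped. Trim44 differs from most of its family in lacking a RING domain. The stretch around the GGAC nearest to the middle of its locus was
Trim44, chr2:102400454-102400513, minus strand, CDS: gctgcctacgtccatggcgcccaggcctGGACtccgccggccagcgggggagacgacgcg

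Rnf11, a small RING protein that adapts other ligases, had the highest mean score of the Rnf loci listed in all kidneys, at exon 2 of 3, with 2964, 3233, 3036 and 3100 in control, 2527, 2452, 1708 and 1500 in IG, and 777, 1651, 1800 and 1455 in TG. Control lay above both other groups, and the percentile stayed high, averaging 99.4 in control, 96.9 in IG and 95.4 in TG. The control scores lie at or near the ceiling of 3100, so the size of the score difference is uncertain. Its 170-nt exon, which held no GGAC, reads
Rnf11, chr4:109456898-109457067, minus strand, CDS: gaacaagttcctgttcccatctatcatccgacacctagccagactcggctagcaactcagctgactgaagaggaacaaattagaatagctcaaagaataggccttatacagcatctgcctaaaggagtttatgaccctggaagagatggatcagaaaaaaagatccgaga

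Usp8, the deubiquitinase that sorts receptors at endosomes, had 7 loci and, at its best peak, the highest mean percentile of all members, and its loci are given by exon. Exon 2 scored 183, 358, 489 and 362 in control, 67.7, 28.4, 58.0 and 98.2 in IG, and 94.0, 125, 67.8 and 83.9 in TG. Exon 4 scored 138 to 212 in control, 42.0 to 97.2 in IG and 41.9 to 99.0 in TG, and exon 5 scored 695 to 1203, 271 to 564 and 402 to 565. At these 3 exons all cisplatin-treated kidneys lay below all control kidneys. Exon 6 scored 83.9 to 203 in control, 42.9 to 147 in IG and 33.8 to 186 in TG, with overlap, exon 3 was listed in 4, 3 and 2 kidneys, and exon 1 in 1 control kidney. Exon 11 scored 1663, 2155, 2510 and 3100 in control, and 3100 in 3 IG and 4 TG kidneys. It was thus at the ceiling in 1 control kidney and in all TG kidneys, and the ceiling hides the size of any difference there.
Usp8 exon 11, chr2:126742429-126742488, plus strand, CDS: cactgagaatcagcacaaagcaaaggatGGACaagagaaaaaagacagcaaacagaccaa

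Usp47, a deubiquitinase of DNA base-excision repair, was at 3100 in all 4 IG kidneys at exon 21, with 1949 to 2955 in control and 2413, 26.6, 2901 and 727 in TG. TG 2, at 26.6, stood far below the others. Usp9x, which acts on many signalling proteins, scored 249 to 976 near its stop codon in control, 28.9 to 238 in IG and 263 to 1131 in TG, so that IG lay below both other groups while control and TG overlapped. Its locus in exon 35 was listed in 2 control, 4 IG and 4 TG kidneys, with scores of 72.1 and 149 in control, 42.2 to 990 in IG and 123 to 279.06 in TG. Usp53, a family member found at tight junctions, scored 1182 to 2199 at exon 13 in control, 1469 to 3100 in IG and 1270 to 2483 in TG, with overlap between all groups.

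**Figure D4:**
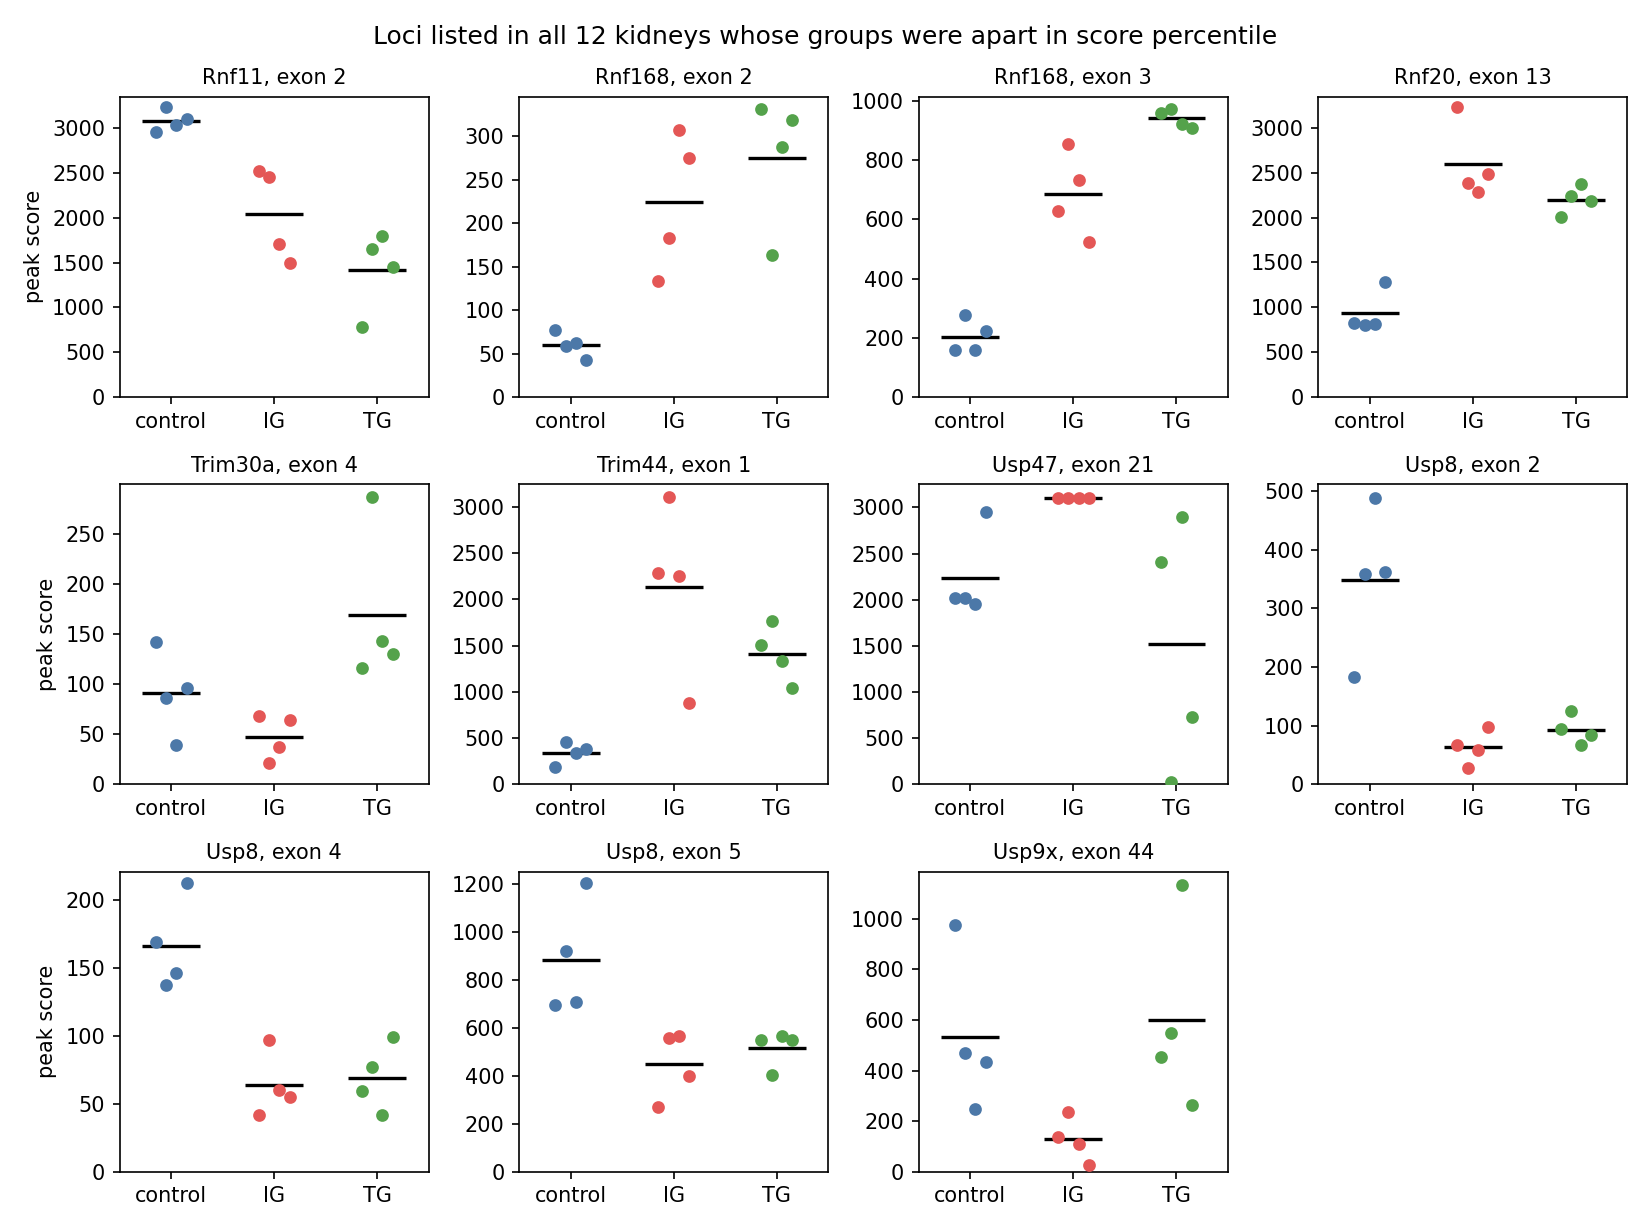
Peak score (10 times the negative log10 of p) in each of 12 kidneys at the 11 member loci listed in all of them whose score percentiles did not overlap in IvC or TvI, with the group mean as a bar. Rnf168, Rnf20 and Trim44 were higher in IG than in control, Usp8, Usp9x and Rnf11 were lower, and 4 Usp47 values in IG lie on the ceiling of 3100.

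At the loci of Fbxo45, Fbxo46, Fbxo32, Fbxl17 and Trim25 given here, control and IG overlapped, and so did IG and TG. Fbxo45 scored 385 to 700 at its 3′ UTR locus in control, 302 to 1122 in IG and 44.5 to 395 in TG. At its exon 2 it scored 375 to 531, 304 to 910 and 127 to 364, where TG lay below control. Fbxo46 scored 544 to 1176 in control, 228 to 686 in IG and 182 to 398 in TG, where TG lay below control. Fbxo32, the atrophy-linked ligase atrogin-1, scored 88.8 to 221 in control, 116 to 248 in IG and 67.4 to 434 in TG. Fbxl17, which clears misassembled BTB-domain dimers, scored 96.9 to 291, 55.2 to 150 and 58.8 to 221. Trim25, a ligase of antiviral signalling, scored 360 to 647 at exon 3 in control, 600 to 1312 in IG and 421 to 995 in TG.

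Of the known regulators in the kidney, Klhl3, the adaptor that directs WNK kinases of the distal nephron to CUL3, had a 3′ UTR peak with scores of 654, 94.4, 293 and 1164 in control, 102, 78.4 and 125 in IG 1, IG 3 and IG 4, and 200, 136, 17.2 and 137 in TG. It was absent from the list of IG 2, and the groups overlapped. Klhl2, which also binds WNK kinases, was listed in 4 control, 3 IG and 2 TG kidneys. Usp2, linked to sodium channels and the clock, was listed in 2 control, 4 IG and 2 TG kidneys, with 15.9 to 230 in IG. Usp10 was listed in 4, 4 and 2, and Usp7, a regulator of the p53 pathway, in 2, 3 and 0.

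Rnf43, which removes Wnt receptors from the cell surface, was listed in all kidneys, and its CDS locus in exon 9 scored 65.5 to 227 in control, 42.7 to 69.2 in 3 IG kidneys and 96.2 to 237 in TG. Rnf2, the Polycomb ligase, scored 160 to 323, 216 to 381 and 151 to 292 at exon 6, with overlap. Rnf213, the giant ligase linked to vascular disease, had 4 loci, and that in exon 28 was listed in 3 control, 4 IG and 1 TG kidneys with a top score of 754 in IG 3. Fbxo31, Fbxo11 and Fbxl20 were each listed in 1 kidney, and Trim63, a muscle ligase, in 2 control kidneys.

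The genes with the most loci in the Usp, Rnf, Trim and Fbxo families were the following, while 8 Klhl genes tied at 2 loci. Usp25, a relative of Usp28, had 8 loci in 9 kidneys, none of which was listed in more than 7, and exon 4 was listed in 3 control, 0 IG and 2 TG kidneys. Rnf111, which promotes TGF-beta signalling, had 7 loci, of which those in exons 3 and 13 were listed in all 12 kidneys. Trim33, a regulator of SMAD4, had 6 loci whose peaks together reached all 12 kidneys with scores of 13.3 to 73.5. Fbxo21, a less studied F-box gene, had 4 loci, and that in its 3′ UTR was listed in 3 IG kidneys only. A single locus was found on 79 of 149 member genes (53.0%).

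Other genes of the ubiquitin pathway were taken from lists of their families. Peaks were found on 14 of 37 E2 genes, 11 of 15 cullin and scaffold genes, 13 of 22 HECT ligases, 24 of 30 other ligases and adaptors, 17 of 27 other deubiquitinases, 2 of 8 E1 genes and 0 of 4 genes of ubiquitin itself. Loci lost in all 4 IG kidneys after being listed in 4 control kidneys were 3 of 28 on E2 genes and 2 of 54 on other ligases and adaptors, and 0 were gained, beside 2.73% lost and 1.35% gained over all loci. They lay on Ube2l3, the E2 used by HECT and RBR ligases, on Ube2u with 2 loci, and on Btrc, the F-box adaptor of NF-kappaB and beta-catenin control, with 2 loci, and no TG kidney listed them. The 45 HECT, 19 cullin and 39 deubiquitinase loci held 0 called in either comparison. In TvI, 0.225% of all loci were gained and 0.449% lost.

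Markers of kidney cell types were checked by the same lists, which show peaks and not transcript levels. Peaks were listed on 2 of 5 proximal tubule markers (in 0 or 1 gene per kidney), 1 of 4 thick limb and distal markers, 3 of 3 podocyte markers, 3 of 4 endothelial markers and 1 of 5 leucocyte markers. An exon of Slc12a1, the salt transporter of the thick limb, was listed in 1 control, 4 IG and 0 TG kidneys, Podxl in 4, 2 and 4, and Nphs1 in 1, 4 and 2. The direction of these counts between IG and TG rests on the groups as labelled, which no marker examined here checks. The part of cell composition in the members' results was not tested.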

How the data were processed

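Per the labels and the study's methods, the authors trimmed reads with cutadapt 1.9.3, aligned them to mm10 with HISAT2 2.0.4 and called peaks for each kidney with MACS, whose version is not given in the sources used here. The deposited lists give each peak's position, strand and score, a multiple of its negative log10 p-value from the caller (by 10), used as deposited. Input and RNA-seq data were not analysed here. Replicates are separate mice. Peaks were assigned to GENCODE exons of GRCm38 by at least 1 bp on the same strand, and peaks sharing 1 bp or more, on either strand, formed a locus. A score percentile is a peak's rank within its own list, and 0 where no peak was listed. Loci were tested with Fisher's exact test (Python 3.11.15, scipy 1.17.1, numpy 2.4.6) and the Benjamini-Hochberg adjustment over all loci, and the rule for calls was tested on simulated presence of peaks. Sequences are from RefSeq, GRCm38.p6. Genes were named if they held a called locus, were the 2 highest of a family by mean percentile among genes in all kidneys, had the most loci of their family, or stood in a list of known regulators, and others named were chosen after their values were seen. The members and lists were chosen with earlier results of these data known. Alternatives were equal list lengths, a score minimum at the median, other overlaps and segments, a looser rule, score percentiles, a replicate block and leaving out each kidney.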

Additional observations from a re-analysis of the deposited data

Results flagged for a closer look

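In 3 of 36 groups of 4 kidneys tested, 1 kidney stood apart from the other 3 by Dixon's test, which flags about 1 in 20 groups by chance. Member genes made up 2.31% of the genes with a peak in IG 1 and 2.10 to 2.11% in the other IG kidneys. Trim genes with a peak numbered 18 in IG 2 and 19 in the other 3. Rnf genes numbered 31 in IG 1 and 28 in the other 3. The last 2 rest on groups in which the other kidneys tied.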

How the results depend on the processing

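The lists hold no counts, so depth could not be weighed, and with 4 kidneys a side only complete separation passes the test before adjustment. Against 6 member loci called in IvC, the total called was 7 with equal list lengths (3 of the 6 among them: Fbxo40, Trim30d and Usp4), 1 among scores at or above the median of 71.3 (0 of the 6), 26 under a difference of at least 3 of 4 kidneys, 27 by a permutation of score percentiles, and 7 to 11 with 1 kidney left out (11 without control 2, 10 without IG 1). Against 2 lost in TvI, 0 were called with equal list lengths, 2 at or above the median score (both gained, neither of the first 2), 1 with a reciprocal overlap of 50%, 12 under at least 3 of 4 kidneys, 10 by percentiles, and 2 to 5 with 1 kidney left out (5 without TG 1). With a replicate block 0 were called in both comparisons, since its smallest p is 0.125. The mean difference in member genes per kidney in IvC turned from -4.75 to 3.75 with equal list lengths and ran from -6.58 to -1.92 with 1 kidney left out. In TvI, -17.75 became -5.25 with equal lengths and -8 at or above the median score, and ran from -20.6 to -15.5 with 1 kidney left out. Loci listed in all kidneys with percentiles apart numbered 10 in IvC (7 to 11 with 1 kidney left out) and 4 in TvI (2 to 3, with 2 without IG 4, TG 1, TG 2 or TG 3). Codon segments of 100 nt raised the CDS share of member peaks from 65.0% to 74.3%. The mean difference in IvC turned to -0.25 genes for Usp without IG 3 (range -0.25 to 1.75) and to 0.5 for Fbxl without control 3 (range -0.83 to 0.5), and that of Fbxo in TvI to 1 with equal lengths. The cause of these changes was not tested. Deviations of same-numbered kidneys correlated at -0.0215 to 0.0254 between control and IG and at -0.0161 to 0.0492 between IG and TG, and 1 of 4 and 2 of 4 were closest to their own number, so the numbers were not taken to pair the kidneys.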
